A study of Mus musculus with 4 samples.

Results

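The genes described here make cholesterol and fatty acids or regulate that synthesis. They were chosen by name: 28 symbols were matched through a GRCm38 gene annotation (GENCODE vM21) to the Ensembl identifiers of the gene tables, and 28 of the 55401 listed genes were found. The RNA was that of EB3, an embryonic stem cell line of the mouse grown on gelatin with LIF, the cytokine that keeps such cells undifferentiated. The 4 libraries were 1 of the parental EB3 line (genotype WT), 1 of EB3-derived cells with an empty vector (genotype WT), and 2 of EB3-derived cells with NUP98-HOXA9 (#1 and #2, here fusion replicates 1 and 2). NUP98-HOXA9 is a leukaemia fusion of a nucleoporin's repeat region with the homeodomain of a Hox factor. The labels give neither the promoter that drives the fusion nor whether #1 and #2 are separate clones, so the p-values reflect no more than the spread among the deposited samples, which may be technical. Both controls are single libraries, and only the empty-vector library carries a vector, as the fusion cells do.

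Cells build cholesterol from acetyl-CoA by the mevalonate pathway, which makes isoprenoid units, joins them to squalene, closes squalene to lanosterol and trims lanosterol to cholesterol. The genes are governed together by SREBP transcription factors, which stay in the endoplasmic reticulum, bound to SCAP and held there by INSIG proteins, while sterols are plentiful. When sterols run low, SCAP escorts SREBP to the Golgi, where proteases free its DNA-binding part. SREBP2 is known mainly for sterol genes and SREBP1 mainly for fatty acid genes, and both commonly act beside NF-Y and Sp1 at promoters.

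Promoters are shown first because NF-Y and Sp1 boxes were shared by most of these genes, though the Sp1 box was also found in most genes tested. These boxes played no part in choosing the members. RefSeq promoter windows (GRCm38.p6, 250 bases before and 50 after a start site) were given for 22 of the 28 genes. Fdft1, Sqle, Fdps, Stard4, Scd1 and Scd2 had none. The NF-Y box CCAAT stood on either strand in 19 of the 22 (86.4%, over 30 windows, since some genes have several start sites). Counted in the same way, by gene, it stood in 43.3% of the 11386 tested genes with a window and 41.1% of all 27025 genes with one. All 27025 genes had 32851 windows, fewer per gene than the members, and more windows per gene raise such a share. The Sp1 box GGGCGG also stood in 19 of the 22 (86.4%), against 68.3% of tested genes and 38.2% of all genes with a window. The sterol response element was searched as TCACNCCAC and found only in Hmgcs1, 1 of 22 genes (4.55%, against 1.47% of tested genes and 1.44% of all genes with a window). The palindromic form TCACGTGA stood in 0 of the 22 genes (2.04% of tested genes and 1.12% of all genes with a window). Such a match describes letters in a window and is not a measured binding site, and a gene without one may hold other forms.

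The upstream stretches of 4 genes show the range, with matches to any of these motifs in capitals. Hmgcs1 holds the element and several boxes, Insig1 and Lss hold boxes only, and Scap holds none in the stretch shown, though Sp1 boxes stand 39 bases after this start site and in its second window, so that it counts among the 19 genes with that box. They are Hmgcs1 at chr13:119690101-119690350 (plus strand), Insig1 at chr5:28071162-28071362 (plus strand), Lss at chr10:76531355-76531587 (plus strand) and the first of the Scap windows at chr9:110333038-110333287 (plus strand). Each ends before the gene model of RefSeq or GENCODE begins.
Hmgcs1: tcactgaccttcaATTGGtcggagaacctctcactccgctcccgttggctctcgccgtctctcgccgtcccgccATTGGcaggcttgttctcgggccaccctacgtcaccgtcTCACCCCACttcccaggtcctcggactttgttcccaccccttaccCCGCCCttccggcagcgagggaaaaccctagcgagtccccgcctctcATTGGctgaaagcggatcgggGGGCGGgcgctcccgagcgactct
Insig1: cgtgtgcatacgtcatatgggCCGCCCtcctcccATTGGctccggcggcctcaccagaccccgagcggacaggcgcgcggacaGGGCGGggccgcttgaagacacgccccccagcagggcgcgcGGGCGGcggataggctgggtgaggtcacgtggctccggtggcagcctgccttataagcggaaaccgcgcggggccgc
Lss: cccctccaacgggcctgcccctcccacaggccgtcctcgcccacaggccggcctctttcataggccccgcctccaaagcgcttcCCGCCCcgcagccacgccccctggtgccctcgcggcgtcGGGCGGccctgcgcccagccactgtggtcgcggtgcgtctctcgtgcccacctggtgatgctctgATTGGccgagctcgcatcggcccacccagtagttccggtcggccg
Scap: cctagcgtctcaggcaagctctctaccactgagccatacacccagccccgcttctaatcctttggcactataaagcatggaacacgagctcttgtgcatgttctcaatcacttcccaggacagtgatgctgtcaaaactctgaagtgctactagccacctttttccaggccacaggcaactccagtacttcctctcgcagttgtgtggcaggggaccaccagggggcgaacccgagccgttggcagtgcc
In Hmgcs1 the element begins 137 bases before the start site. In Lss the NF-Y box begins 62 bases before it.

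The libraries held 19021386 to 21151729 estimated counts, with 2.03% to 2.5% from mitochondrial genes. Hoxa9 had 0 counts in both controls and 3785 and 2790 counts in fusion replicates 1 and 2, as the labels say, though counts per gene do not separate the construct from the cells' own gene. All 10 embryonic stem cell markers were detected, with summed levels, in CPM (counts scaled to library size, with TMM factors), of 5190 (parental), 5980 (empty vector), 6560 and 6320 (fusion replicates 1 and 2). Of these markers 4 were at least 1.5-fold higher in the empty-vector than in the parental library (13.1% of all genes tested) and 0 at least 1.5-fold lower (11.5%). The 4 were Klf4 (62.5 and 125 CPM in the parental and the empty-vector library), Tdgf1 (301 and 731), Nanog (314 and 489) and Fgf4 (129 and 231). Of 12 primitive endoderm markers 5 were at least 1.5-fold lower in the empty-vector library (11.5% of all genes tested) and 1 was at least 1.5-fold higher (13.1%). Some of these were near the floor, such as Gata6 at 0.469 and 0.212 CPM in the parental and the empty-vector library. In the fusion cells 11 of the 12 rose (2.83% of all genes tested). Their summed levels were 399 and 380 CPM in the controls and 1610 and 1400 CPM with the fusion. Visceral endoderm markers, 10 in all, with Ttr and Apoa4 at 0 in both controls, summed to 7.97, 7.96, 20.1 and 103 CPM in the same order. Cubn alone gave 7.27 and 82.2 CPM of the sums in fusion replicates 1 and 2. It was the only 1 of the 6 tested visceral endoderm markers that rose (2.83% of all genes tested). The 9 fibroblast markers summed to 42.5, 29.0, 50.7 and 57.1 CPM, and 0 of 7 tested rose. Markers of a state like the 2-cell embryo summed to 4.95, 15.1, 79.4 and 385 CPM. Of these, 4 of 7 rose with the fusion (2.83% of all genes tested). In the empty-vector library 7 of 7 were at least 1.5-fold higher than in the parental library (13.1% of all genes tested). Several were near the floor there: Zfp352 stood at 0.0521 and 0.159 CPM in the parental and the empty-vector library, and Tcstv3 at 0 and 0.106 CPM. The part of such cell states in the results below was not tested, and in bulk RNA fewer cells of a type and less RNA per cell cannot be told apart.

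The first comparison set the fusion cells (n = 2) against wild type, for which the parental line and the empty vector were pooled (n = 2). No member passed edgeR's quasi-likelihood test at a Benjamini-Hochberg adjusted p of 0.05: 0 of 28 were higher and 0 of 28 lower, while 2.83% of the 16511 genes tested were higher and 0.581% lower. All 28 members passed the filter on low counts, with mean levels from 11.5 to 744 CPM. At an unadjusted p of 0.05, 2 members passed (Scd2 and Idi1), against 20.1% of all genes tested. DESeq2 and limma on TPM called 0 members as well, and 2 had an unadjusted p under 0.05 in DESeq2, against 18.4% of all genes. The median log2 fold change of the members was -0.03, beside 0.0 over all genes tested. That small median hides a wide gap between the controls, which is the main feature of these genes. With the controls pooled as replicates, the gap enters the residual spread and widens the SE of members that have it (Msmo1 0.52, Insig2 0.24). The lack of calls therefore does not show that these genes are unchanged.

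On the CPM scale the empty-vector library stood lower than the parental library for 27 of the 28 genes, against 49.6% of all genes tested and 51.2% of the 9734 genes that average 10 CPM or more, a floor that all members clear. The median log2 ratio of empty vector to parental was -0.8, where all genes tested had a median of 0.0. At least 1.5-fold lower levels in the empty-vector library were found for 19 of 28 members (18 with library totals and 15 on log2(TPM + 1)), against 11.5% of all genes tested and 6.28% of the genes above that floor. At least 2-fold lower levels were found for 9 members, against 4.25% and 1.44%. In the other direction 0 of 28 reached 1.5-fold (13.1% of all genes tested and 7.3% above the floor) and 0 reached 2-fold (5.71% and 2.37%). On the TPM scale Scap did pass both, at 11.2 TPM in the parental and 23.8 TPM in the empty-vector library, and Insig2 and Tm7sf2 were higher there too. These folds and scales were chosen after the data had been seen, and the members were chosen with earlier results of these data known. Some markers of cell state also differed between the controls, as given above, and their part in this gap was not tested. With 1 library per control this gap has no replicate check and no test, and whether it belongs to the vector, the derived line or these 2 cultures cannot be told apart.

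The fusion libraries lay inside that gap for many genes. Both fusion libraries stood between the controls for 13 of 28 members, against 11.6% of all genes tested. The parental library was the highest of the 4 for 18 members (25.4% of all genes tested) and the empty-vector library the lowest for 21 (24.1%). The gap between the controls was wider than the gap between the fusion replicates for 25 of 28 members, against 49.4% of all genes tested. The fusion replicates were at least 1.5-fold apart for 5 members (24.9% of all genes tested, 14.0% of those that average 10 CPM or more) and at least 2-fold apart for 0 (10.2% and 4.03%).

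**Figure D1:**
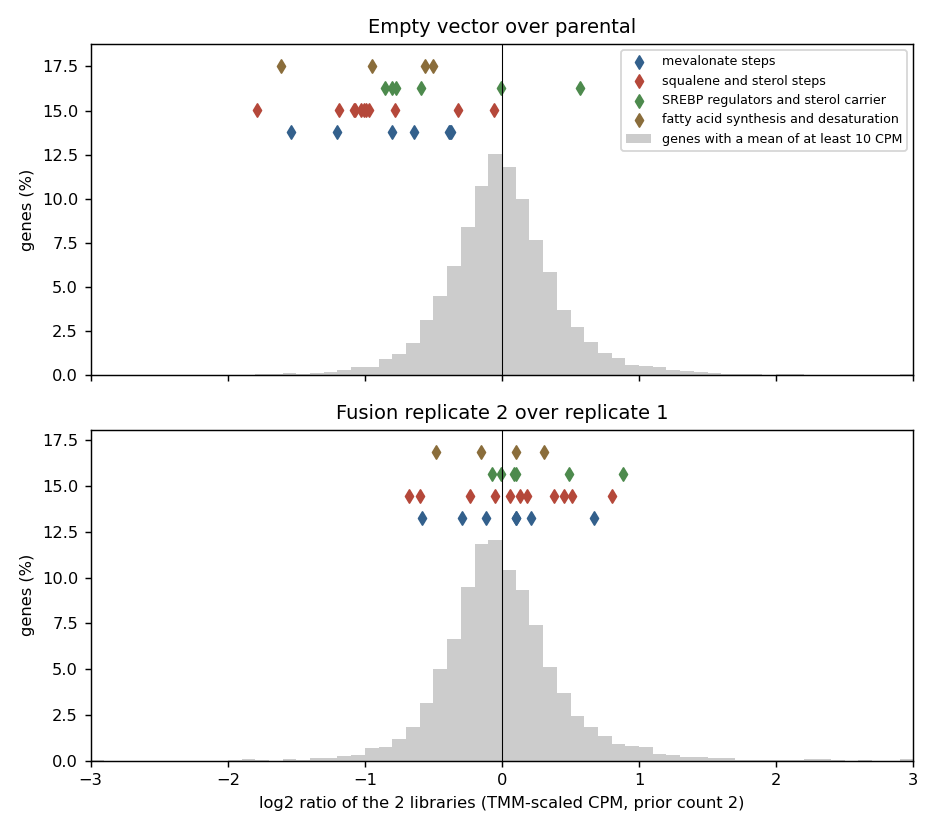
Log2 ratio of the empty-vector to the parental library (top) and of fusion replicate 2 to replicate 1 (bottom). Grey bars give the percentage of the 9734 genes averaging 10 CPM or more in each bin, and diamonds are the 28 members by role (their height only separates the roles); 27 diamonds lie left of 0 in the top panel, while 11 lie left and 17 right of 0 in the bottom panel.

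Along the mevalonate steps the gap varied from gene to gene. Hmgcs1 (chromosome 13, 119690379 to 119708260, plus strand), which makes HMG-CoA, stood at 262 CPM in the parental library, 150 in the empty-vector library, and 187 and 217 in fusion replicates 1 and 2. Its parental level was the highest and its empty-vector level the lowest, with the fusion libraries between. Mvd (chromosome 8, 122433601 to 122443422, minus strand), the decarboxylase that forms isopentenyl diphosphate, stood at 58.0, 25.1, 34.0 and 36.5 CPM in the same order. Fdps (chromosome 3, 89093588 to 89101959, minus strand), the farnesyl diphosphate synthase, stood at 148, 50.5, 56.1 and 89.2 CPM. The parental level of Fdps was 2.92-fold above that of the empty vector (95% exact binomial interval 2.71 to 3.15, counting error only), the widest gap of the 7 genes of these steps. Against the pooled controls the log2 fold change of Fdps was -0.45 (SE 0.47, adjusted p = 0.674, edgeR).

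Idi1 (chromosome 13, 8885501 to 8892451, plus strand), the isomerase that balances the isoprenoid building blocks, was the only member with both fusion libraries below both controls. It stood at 136 CPM in the parental and 86.9 in the empty-vector library, and at 72.3 and 77.6 in fusion replicates 1 and 2. Among all genes tested 24.2% have the fusion libraries below both controls. The log2 fold change of Idi1 was -0.57 (SE 0.24, adjusted p = 0.246, edgeR), with -0.23 without the parental library and -0.88 without the empty vector. The remaining genes of these steps had narrower gaps: Acat2, a thiolase that condenses acetyl-CoA, had a log2 ratio of empty vector to parental of -0.39. The kinases Mvk and Pmvk had ratios of -0.38 and -0.37, and Pmvk stood at 35.2, 27.2, 43.3 and 28.9 CPM in the parental, empty-vector and fusion libraries, with the parental level inside the span of the fusion replicates and the empty vector just below it.

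The steps from squalene to cholesterol had the widest gap of the 4 roles. Of 11 genes 9 were at least 1.5-fold lower in the empty-vector library, and their median log2 ratio to parental was -1.01. Msmo1 (chromosome 8, 64718139 to 64733792, minus strand), the sterol C4-methyl oxidase, had the widest gap of all 28 members. It stood at 105 CPM in the parental library, 30.1 in the empty-vector library, and 41.7 and 59.4 in fusion replicates 1 and 2. The parental level was 3.48-fold above the empty vector (95% exact binomial interval 3.16 to 3.82, counting error only), and the fusion libraries lay between. Its log2 fold change against the pooled controls was -0.41 (SE 0.52, adjusted p = 0.727, edgeR). Msmo1 and Mvd lie on chromosome 8, where 841 tested genes had a median log2 ratio of empty vector to parental of -0.38, against -0.04 to 0.08 on the other chromosomes that carry members. Without these 2 genes 17 members remain at least 1.5-fold lower in the empty-vector library.

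Squalene itself is made by Fdft1 and opened for cyclisation by Sqle, the epoxidase. Fdft1 (chromosome 14, 63145150 to 63179578, minus strand) overlaps Ctsb on the opposite strand, as Cyp51 overlaps Akap9 and Srebf1 overlaps Rai1, and Tm7sf2 overlaps Vps51 on its own strand; whether counting used strand is not given in the labels, so reads of these pairs may be mixed. Fdft1 stood at 116, 57.4, 79.9 and 90.6 CPM in the 4 libraries, in the order used for Hmgcs1. Sqle (chromosome 15, 59315077 to 59331192, plus strand) stood at 110, 52.2, 115 and 71.5 CPM, with fusion replicate 1 just above the parental level and replicate 2 nearer the empty vector. Sqle had the largest fall from fusion replicate 1 to replicate 2 among the members, a log2 ratio of -0.68. Lss, the cyclase that closes the ring (chromosome 10, 76531588 to 76557138, plus strand), stood at 109, 55.7, 50.3 and 68.9 CPM. Here the fusion libraries lay beside the empty vector and below the parental line (log2 fold change -0.47, SE 0.33, adjusted p = 0.508, edgeR).

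Later steps remove methyl groups and shift double bonds. Cyp51, the lanosterol demethylase, stood at 65.3, 32.8, 41.9 and 45.9 CPM in the same order, again with the fusion libraries between the controls. Nsdhl, a dehydrogenase of C4 demethylation on chromosome X (72918557 to 72958514, plus strand), stood at 39.4, 19.2, 18.5 and 24.1 CPM, near the empty vector (log2 fold change -0.46, SE 0.36, adjusted p = 0.557, edgeR). Sc5d, the desaturase that precedes Dhcr7, stood at 24.4, 11.6, 22.0 and 23.0 CPM, near the parental line. In the fusion cells Nsdhl thus lay at the lower and Sc5d at the upper end of the gap.

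Dhcr7, the last reductase on the way to cholesterol (chromosome 7, 143823145 to 143848410, plus strand), split the fusion replicates. It stood at 86.7 and 37.8 CPM in the controls, while the fusion replicates had 34.7 and 60.5 CPM. Hsd17b7, a ketoreductase, was the least abundant member and stood at 15.1, 8.7, 12.1 and 10.3 CPM. The control gap was narrow for Tm7sf2, a sterol reductase, and Ebp, the isomerase, whose log2 ratios of empty vector to parental were -0.06 and -0.32. Tm7sf2 stood at 13.8, 13.2, 16.2 and 15.6 CPM.

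**Figure D2:**
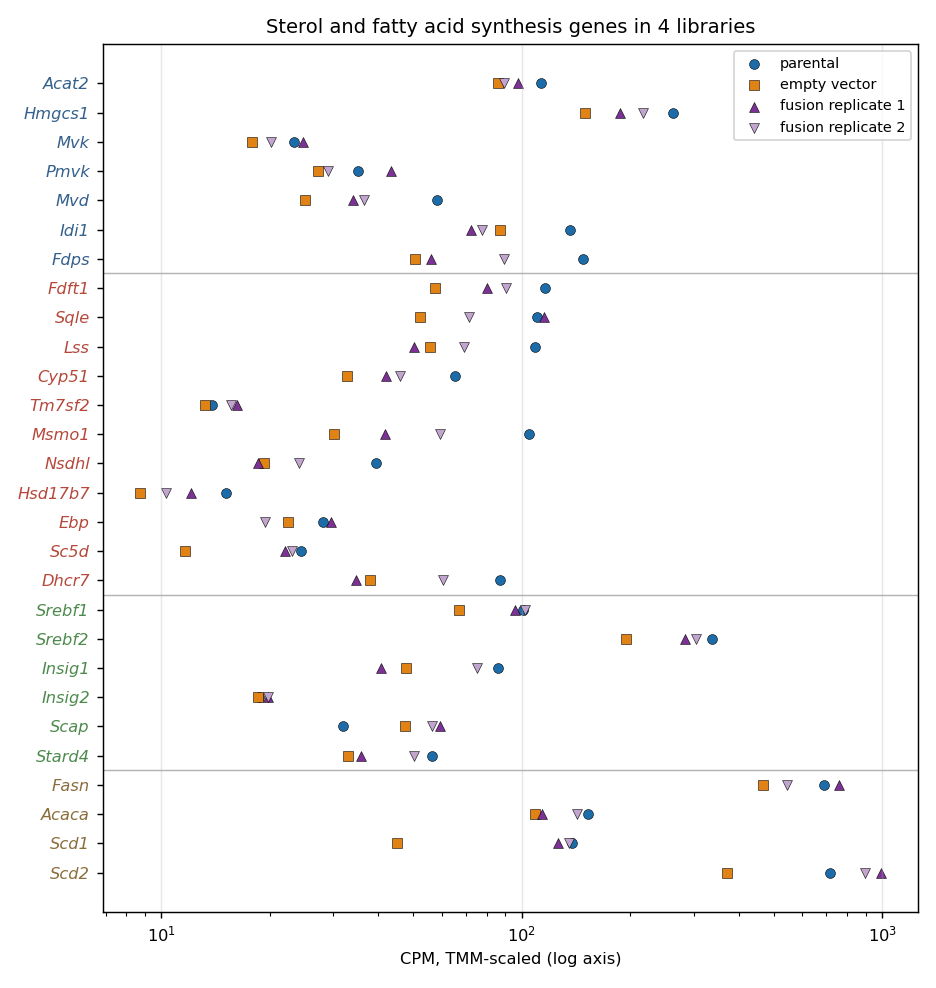
CPM (TMM-scaled, log axis) of each member in the 4 libraries, with genes grouped by role from mevalonate steps (top) to fatty acid genes (bottom). The empty-vector squares are the lowest points for 21 of the 28 genes, and the parental circles the highest for 18.

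The regulators had the same gap except for Insig2 and Scap. Srebf2 (chromosome 15, 82147181 to 82205379, plus strand), which encodes SREBP2, stood at 338 CPM in the parental library, 194 in the empty-vector library, and 284 and 305 in fusion replicates 1 and 2. Srebf1, which encodes the SREBP1 isoforms, stood at 101, 67.0, 96.0 and 102 CPM, so the fusion libraries lay at the parental level and above the empty vector. Insig1, the sterol-induced anchor of SCAP and itself an SREBP target, stood at 86.0, 47.8, 40.7 and 75.1 CPM. Its fusion replicates differed the most of all members, with a log2 ratio of replicate 2 to replicate 1 of 0.88, with replicate 1 below both controls and replicate 2 between them. Stard4, a carrier that moves cholesterol between membranes, stood at 56.4, 33.0, 35.7 and 50.3 CPM, with replicate 1 near the empty vector and replicate 2 near the parental line.

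Insig2, the second anchor, was level across the libraries at 18.6, 18.5, 19.8 and 19.7 CPM. On the TPM scale, which uses each library's own estimated transcript length (2219, 1613, 1768 and 1495 bases in the same order), it stood at 11.2, 16.6, 16.6 and 20.1 TPM, so its order of libraries depends on the scale. Scap (chromosome 9, 110333288 to 110384950, plus strand), the escort of SREBP, was the only member with a higher CPM in the empty-vector than in the parental library. It stood at 32.0 CPM in the parental library, 47.4 in the empty-vector library, and 59.3 and 56.4 in fusion replicates 1 and 2. Both fusion libraries lay above both controls, as for 27.1% of all genes tested. Only 4 members did so: Scap, Insig2, Tm7sf2 and Scd2. The log2 fold change of Scap against the pooled controls was 0.54 (SE 0.24, adjusted p = 0.266, edgeR), with 0.27 without the parental library and 0.83 without the empty vector.

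Of the 4 fatty acid genes, Scd2 stood above both controls in the fusion cells, while the others lay near or between them. Scd2 (chromosome 19, 44293674 to 44306864, plus strand), a stearoyl-CoA desaturase that makes monounsaturated fatty acids, stood at 716 CPM in the parental library and 370 in the empty-vector library. It reached 994 and 896 CPM in fusion replicates 1 and 2, above both controls. With a log2 fold change of 0.8 (SE 0.3, adjusted p = 0.205, edgeR) it had the lowest adjusted p of the 28 members and still missed the threshold. Without the parental library the log2 fold change of Scd2 was 1.34 (adjusted p = 0.0191, edgeR), a fit that assumes the single control to vary like the fusion libraries. Without the empty vector it was 0.38 (adjusted p = 0.493, edgeR).

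Scd1 (chromosome 19, 44394455 to 44407879, minus strand), its neighbour and paralogue, stood at 138 and 45.0 CPM in the controls and at 126 and 135 CPM in the fusion replicates. The fusion libraries thus lay at the parental level, and the empty-vector library alone stood apart, 3.06-fold below the parental line (95% exact binomial interval 2.83 to 3.31, counting error only). Against the pooled controls the log2 fold change was 0.51 (SE 0.45, adjusted p = 0.602, edgeR), without the parental library it was 1.52 (adjusted p = 0.0124, edgeR), and without the empty vector it was -0.1 (adjusted p = 0.894, edgeR). Scd1 and Scd2 were the 2 members past the test in that fit, where 1.91% of 17446 genes were higher and 0.653% lower. No member passed with any other library left out: 2.04% and 0.681% of genes were higher and lower without the empty vector, 0.875% and 0.0633% without fusion replicate 1, and 2.15% and 1.08% without fusion replicate 2. Reads that match both genes are shared out between them, so their split is uncertain.

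Fasn, the fatty acid synthase (chromosome 11, 120805846 to 120824547, minus strand), stood at 688, 466, 759 and 545 CPM in the same order of libraries. Acaca, the carboxylase that supplies malonyl-CoA, stood at 153, 109, 114 and 142 CPM. For Acaca both fusion replicates lay between the controls, and for Fasn replicate 1 lay above both and replicate 2 between them. The 8 members with an absolute log2 fold change of at least 0.4 against the pooled controls have been given with their statistics. The other 20 had log2 fold changes from -0.39 to 0.32, with adjusted p between 0.641 and 0.978 (edgeR).

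Set against each control apart, the fusion cells took opposite sides. In a fit with 3 groups, 23 of 28 members had a log2 fold change below 0 against the parental line (48.1% of all genes tested; 5 were above 0, against 51.9%), and 27 of 28 had one above 0 against the empty vector (50.9%; 1 was below 0, against 49.1%). The signs were opposite for 22 members. A member's values in these comparisons differ by the gap between its controls, so this is no separate result about the fusion. The share of all genes with opposite signs was not computed. Each control is a single library in this fit, so the residual spread comes from the fusion libraries alone and is assumed for the controls. These comparisons share the fusion libraries, and neither called a member: 0 of 28 passed against the parental line, where 0.509% of all genes were higher and 0.121% lower, and 0 of 28 against the empty vector, where 0.388% were higher and 0.109% lower. At an unadjusted p of 0.05, 7 and 6 members passed, against 16.1% and 15.3% of all genes. The median log2 fold change of the members was -0.26 against the parental line and 0.39 against the empty vector, beside 0.03 and 0.01 over all genes tested.

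The members at the ends of these comparisons are given next, and a difference by role was not tested. Of these, Msmo1, Scd1 and Fdps also had the widest gaps between the controls of all members. Their log2 ratios of empty vector to parental were -1.79, -1.61 and -1.54. Against the parental line the lowest values were those of sterol genes, Msmo1 at -1.05 (adjusted p = 0.145, edgeR) and Fdps at -1.02 (adjusted p = 0.186, edgeR). The highest was Scap at 0.86 (adjusted p = 0.184, edgeR). Against the empty vector the highest were the desaturases, Scd1 at 1.54 (adjusted p = 0.0537, edgeR) and Scd2 at 1.35 (adjusted p = 0.0608, edgeR), and Idi1 at -0.21 was the lowest. Scap, Scd2, Tm7sf2, Pmvk and Insig2 were above 0 against both, and Idi1 was below 0 against both.

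**Figure D3:**
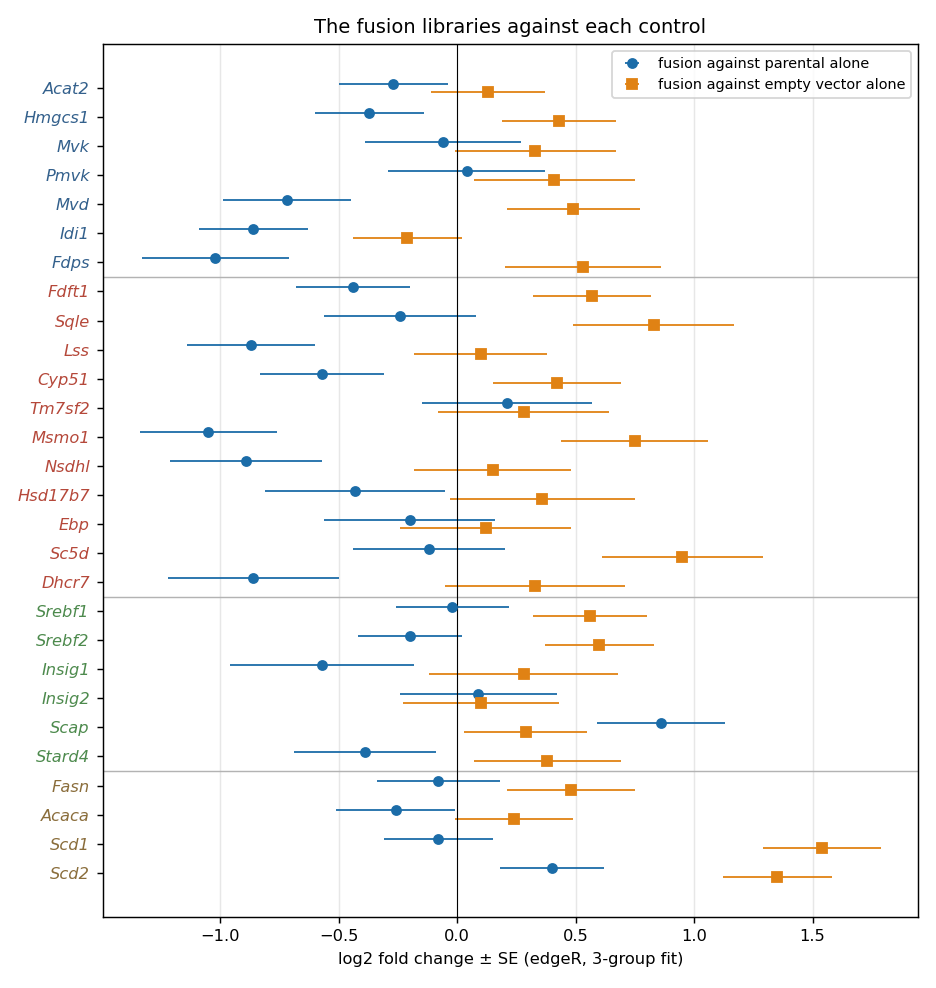
Log2 fold change (± SE) of the 2 fusion libraries against the parental library alone (circles) and against the empty-vector library alone (squares), for the 28 members grouped by role. Circles lie below 0 for 23 genes and squares above 0 for 27, and the fusion libraries are shared by both series. The residual spread behind the SE comes from the fusion libraries alone.

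Levels can be compared between genes on the TPM scale, which accounts for transcript length. By their mean over the 4 libraries the order began with Scd2 (205 TPM) and Fasn (201), then Fdps (108), Srebf2 (105) and Hmgcs1 (91.7), and it ended with Sc5d (14.1) and Hsd17b7 (6.43). Scd2 ranged from 102 to 280 TPM and Fasn from 145 to 260 TPM, so the order of these neighbours does not exceed their spread. The same holds for Fdps (64.3 to 176 TPM) and Srebf2 (76.3 to 120 TPM). Hsd17b7 (5.12 to 7.6 TPM) and Sc5d (6.86 to 17.3 TPM) overlap in range, but Sc5d was the higher in each of the 4 libraries.

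Summed by role, the mevalonate genes reached 535 TPM in the parental library, 312 in the empty-vector library, and 383 and 422 in fusion replicates 1 and 2. The squalene and sterol genes summed to 462, 244, 338 and 363 TPM in the same order. In both roles the fusion libraries lay between the controls. The regulators summed to 280, 213, 265 and 320 TPM, with fusion replicate 1 between the controls and replicate 2 above both. The fatty acid genes summed to 494, 293, 637 and 546 TPM, with both fusion libraries above both controls. Scd2 gave 182, 102, 280 and 257 TPM of that, and in CPM the sums of the fatty acid genes were 1700 in the parental library and 1720 in fusion replicate 2. All 28 members together summed to 1770 TPM in the parental, 1060 in the empty-vector and 1620 and 1650 TPM in the fusion libraries.

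**Figure D4:**
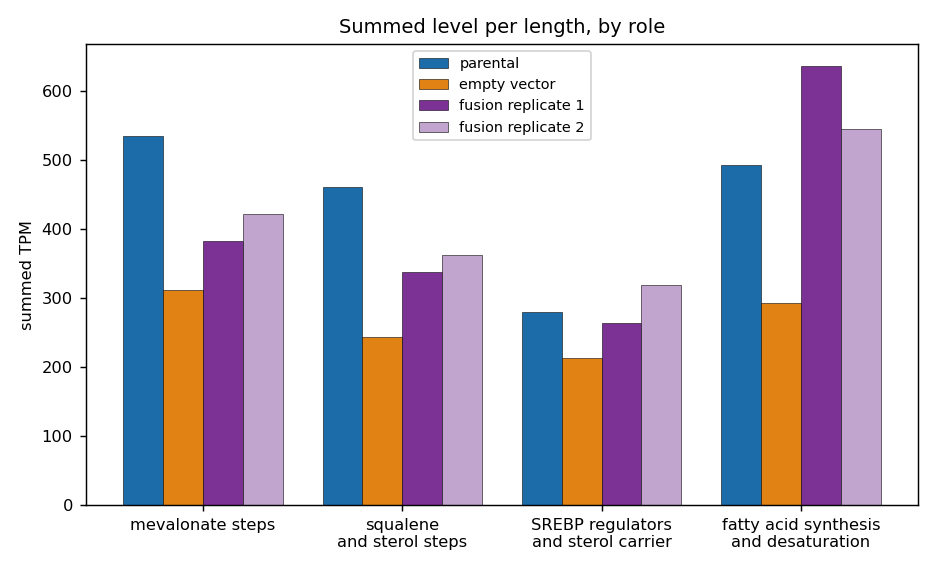
Summed TPM of the members by role in the parental, empty-vector and fusion libraries (bars from 0, 1 bar per library, no error bars since each bar is 1 library). The fusion bars lie between the controls for the mevalonate and sterol genes and above both for the fatty acid genes, at 637 and 546 TPM.

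Genes around the pathway were read from 6 further lists. No list was tested as a set, and 2.83% of all genes tested were higher and 0.581% lower with the fusion. None of the 12 tested genes of the isoprenoid branches passed in either direction in edgeR; Fntb, a farnesyltransferase subunit, stood at 54.4, 73.4, 106 and 62.7 CPM, and Nus1, a dolichol synthesis subunit, at 85.7, 74.5, 63.3 and 68.4 CPM. None of 12 genes of SREBP processing and sterol sensing passed either; Mbtps1, the first protease that cuts SREBP, stood at 281, 172, 231 and 230 CPM, with the fusion libraries between the controls, as for 13 members. Npc2, a lysosomal cholesterol carrier, stood at 138, 120, 85.5 and 119 CPM. The median log2 fold change against the pooled controls was 0.06 for the isoprenoid list and 0.09 for the processing list.

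Of 26 tested genes of fatty acid supply, elongation and desaturation 1 rose and 0 fell, against 2.83% and 0.581% of all genes tested. Elovl6, the elongase that extends palmitate, rose with the fusion, to 252 and 297 CPM against 132 and 127 CPM in the controls (log2 fold change 1.09, SE 0.18, adjusted p = 0.0296, edgeR). Its controls differed little, unlike those of Scd1 and Scd2. Of 12 tested genes of fatty acid oxidation 1 rose and 0 fell: Slc25a20, the mitochondrial carnitine carrier, had 72.8 and 42.1 CPM with the fusion against 13.8 and 19.4 CPM without it (log2 fold change 1.79, SE 0.32, adjusted p = 0.037, edgeR).

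Of 12 tested genes of sterol efflux, storage and LXR response 1 rose and 0 fell (2.83% and 0.581% of all genes tested). This was Abcg4, a sterol exporter, at 0.521 and 0.212 CPM in the controls and 3.06 and 3.24 CPM in the fusion libraries (log2 fold change 3.08, SE 0.58, adjusted p = 0.0398, edgeR). Of 9 tested genes of lipoprotein and fatty acid uptake 2 rose and 0 fell, the endocytic receptor Cubn and the adaptor Dab2. Cubn had 0.885 and 0.849 CPM in the controls against 7.27 and 82.2 CPM with the fusion (adjusted p = 0.0474, edgeR). Dab2 had 8.91 and 5.25 CPM against 34.3 and 62.2 CPM (adjusted p = 0.0215, edgeR). Cubn and Dab2 are also on the endoderm marker lists, whose summed levels are given above; their part in these rises was not tested.

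The gap between the controls was narrower in most of these lists. The median log2 ratio of empty vector to parental was -0.18 for the isoprenoid branches, -0.2 for SREBP processing, -0.39 for fatty acid supply and elongation, 0.06 for sterol efflux and 0.17 for fatty acid oxidation. Of all genes tested 11.5% were at least 1.5-fold lower in the empty-vector library and 13.1% at least 1.5-fold higher. In the fatty acid supply list 9 of 26 genes were at least 1.5-fold lower there, and in the uptake list 5 of 9, with a median of -0.75. In the oxidation list 0 of 12 were. In the efflux list 1 of 12 was, and 4 were at least 1.5-fold higher there. The 4 were Abca1 (22.7 CPM in the parental library, 54.4 with the empty vector), the exporter Abcg1 (19.9 and 32.7 CPM), Hsd3b7 (5.99 and 11.7 CPM) and Soat2, which esterifies sterols (2.71 and 6.31 CPM). The medians of the 4 roles of the members lay at -0.64 (mevalonate), -1.01 (squalene and sterol), -0.68 (regulators) and -0.76 (fatty acid), and these differences between lists were not tested.

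**Figure D5:**
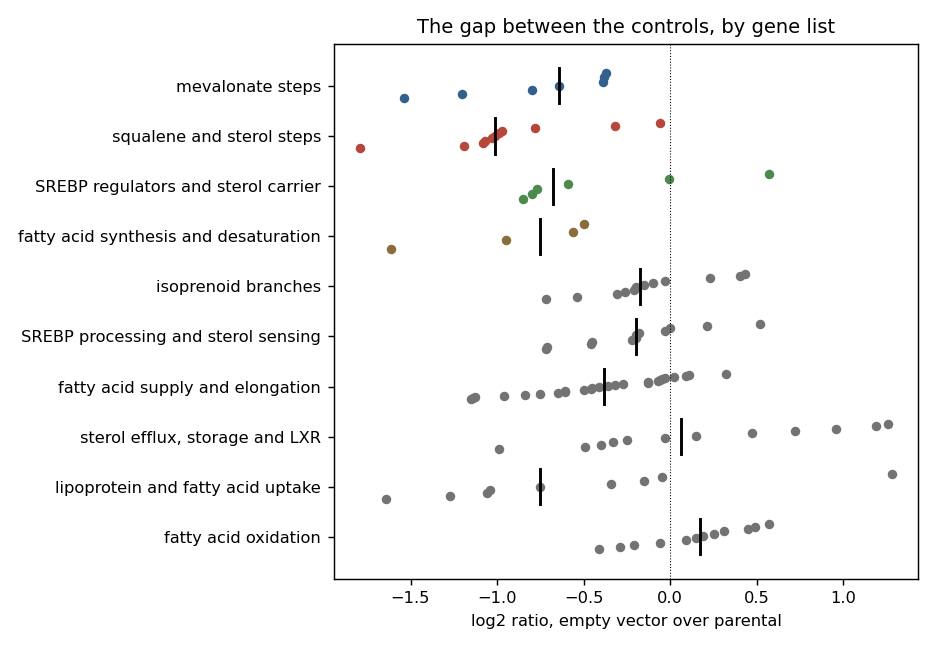
Log2 ratio of the empty-vector to the parental library for each gene of the 4 member roles (coloured) and the 6 further lists (grey), with a bar at each median. The medians of the member roles lie between -1.01 and -0.64, and those of the sterol efflux and fatty acid oxidation lists at 0.06 and 0.17.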

How the data were processed

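The authors deposited 1 gene table per library with expected counts, TPM and FPKM, per the file headers. The submitters' processing notes name the build GRCm38/mm10 and the tools RSEM 1.3.3, STAR 2.7.10a and DESeq2 1.36.0. For the annotation release and strand setting the sources used here give nothing. The deposited expected counts share out reads that match several genes, and 10 members have counts that are not whole. The deposited FPKM values were not used; the deposited TPM values served for levels between genes. Libraries were made with a stranded mRNA kit, per the labels' protocols.

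Expected counts were rounded and fitted in edgeR 4.0.16 (R 4.3.3) by its robust quasi-likelihood method after TMM scaling and filterByExpr (minimum count 10). The fit with pooled controls had 2 residual degrees of freedom, and the 3-group fit and those with a library left out had fewer. P-values were adjusted over 16511 genes. The SE is the absolute log2 fold change divided by the square root of F. Ratios of single libraries use log2 CPM with a prior count of 2. The steps were checked on simulated data that held no gap between the controls and only changes larger than those of the members. That check therefore does not cover changes or a gap like those of the members. Members and lists were chosen with earlier results of these data known. All members are named; each further list is named by its genes past the threshold (at most 4) or, with none, its 2 most abundant. The alternatives were other scalings, filters and tools, each control alone, and each library left out. limma 3.58.1, DESeq2 1.42.0, pandas 2.3.3, python 3.11.15 and matplotlib 3.10.9 were used.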

Additional observations from a re-analysis of the deposited data

How the results depend on the processing

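No paired analysis was possible because the parental and empty-vector libraries carry no replicate numbers. Counts over all genes, higher and lower with the fusion, were 1315 and 631 without a filter, 919 and 436 by DESeq2, 84 and 20 against the parental line alone and 64 and 18 against the empty vector alone. With each library left out in turn they ranged from 152 to 367 and from 11 to 185. Members called higher ranged from 0 to 2, with the 2 found without the parental library. The members' median log2 fold change was 0.04 with library totals and 0.13 by limma on log2(TPM + 1) and on log2(TPM + 0.1), where the median over all genes also moved, to 0.06, 0.08 and 0.1. It was -0.26 against the parental line and 0.39 against the empty vector. Leaving out 1 library moved it between -0.29 (without the empty vector) and 0.38 (without the parental line).

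Against the empty vector alone the log2 fold change turned to 0.53 for Fdps, 0.1 for Lss, 0.75 for Msmo1 and 0.15 for Nsdhl, and against the parental line alone Scd1 turned to -0.08. With 1 library left out, Fdps ranged from -1.05 to 0.51, Lss from -0.9 to 0.08, Msmo1 from -1.08 to 0.73, Nsdhl from -0.91 to 0.13, Idi1 from -0.88 to -0.23, Scap from 0.27 to 0.83, Scd1 from -0.1 to 1.52 and Scd2 from 0.38 to 1.34, with the ends set by the libraries of the controls. The fold of 1.5 between the controls (19 members lower in the empty vector) and its alternatives were all chosen after seeing the data: 19 with DESeq2 size factors, 18 with library totals, 15 on log2(TPM + 1), 17 without chromosome 8 and 9 at a fold of 2. With 1 library per control, the depth bounds only the counting error of their ratio.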

Other observations

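Some genes outside the synthesis steps showed the same gap between the controls; they were picked after their values were seen and were given no test. With the parental level first, then the empty vector, then the fusion replicates 1 and 2, Elovl5, an elongase of polyunsaturated fatty acids, stood at 81.5, 48.4, 82.2 and 83.0 CPM, with the empty-vector library alone apart. Fads1, a desaturase of polyunsaturated fatty acids, stood at 75.3, 38.6, 37.1 and 69.5 CPM and Fads2, which acts beside it, at 80.3, 51.1, 36.0 and 68.3 CPM. In this pair fusion replicate 1 was the lowest library and replicate 2 lay between the controls, much as for Insig1. Acsl3, which activates fatty acids with coenzyme A, stood at 85.4, 38.3, 55.3 and 75.6 CPM. Lrp1, a large endocytic receptor, went the other way at 70.0, 170, 347 and 271 CPM.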
